A study of Mus musculus with 10 samples.

Results

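Rest and 8 of its corepressors were followed through 10 total RNA libraries made from 8-cell mouse embryos. These 9 genes, found by symbol among the 24421 genes of the deposited tables, are Rest, Rcor1, Rcor2, Rcor3, Kdm1a, Phf21a, Sin3a, Hdac1 and Hdac2, and all 9 passed the filter on low values (1 linear unit or more in 2 or more libraries). Rest was singled out because its level is high and is lower in siTfap2c than in siKlf5, so its levels in the knockdowns are given as a description without a test, and no gene is tested between the knockdowns. The other 8 genes were taken for their role beside Rest.

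The 10 libraries fall into 5 groups of 2, all from embryos of BDF1 genotype with zona and polar bodies removed. Ctrl is the control, siKlf5 a knockdown of Klf5 and siTfap2c a knockdown of Tfap2c. Arpc1bE_CdxE1_KO and CdxE2_KO are both labelled as knockouts of Tfap2c motifs in the genome. Tfap2c is an AP-2 transcription factor and Klf5 a Krüppel-like one. The labels used here do not say what the control embryos received, how many embryos entered a library, or whether the 2 libraries of a group came from separate collections, so each p-value refers to the spread between libraries alone, and that spread may be technical. Levels are deposited log2(abundance + 1) values, and linear units are the same values with the log and the added 1 undone. The tables give no read counts, so depth is unknown.

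The protein REST binds a long DNA element, called RE1, that lies near many genes of mature neurons, and represses them in cells that are not neurons. It recruits the SIN3 complex through one end of the protein and the CoREST complex through the other. CoREST scaffolds, made from Rcor1, Rcor2 and Rcor3, hold the histone demethylase LSD1 (Kdm1a) next to the histone deacetylases HDAC1 and HDAC2, and Phf21a encodes BHC80, a subunit that reads unmethylated histone H3. In pluripotent cells Rest is highly expressed and REST occupies RE1 sites, and its amount drops as neurons form.

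Promoters of the 4 corepressor genes that passed the test in a knockdown are shown here, since the knockdowns remove factors that bind DNA. Each is the window from RefSeq (build GRCm38.p6) that runs from 250 bases before to 50 bases after an annotated start, written 5′ to 3′ on the gene's strand. Of the 9 genes 7 matched a promoter entry, and Rest and Hdac1 did not. In the windows of Hdac2 (chr10:36974294-36974593, plus strand), Phf21a (chr2:92185233-92185532, plus strand, the upstream of its 2 windows) and Kdm1a (chr4:136602674-136602973, minus strand), capitals mark matches to the palindromic AP-2 motif GCCNNNGGC.
Hdac2: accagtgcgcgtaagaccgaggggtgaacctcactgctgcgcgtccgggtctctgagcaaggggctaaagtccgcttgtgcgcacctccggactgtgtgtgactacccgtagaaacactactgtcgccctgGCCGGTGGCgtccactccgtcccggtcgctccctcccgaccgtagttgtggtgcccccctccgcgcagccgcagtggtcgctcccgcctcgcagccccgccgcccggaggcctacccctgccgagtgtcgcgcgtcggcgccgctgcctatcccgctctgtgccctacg
Phf21a: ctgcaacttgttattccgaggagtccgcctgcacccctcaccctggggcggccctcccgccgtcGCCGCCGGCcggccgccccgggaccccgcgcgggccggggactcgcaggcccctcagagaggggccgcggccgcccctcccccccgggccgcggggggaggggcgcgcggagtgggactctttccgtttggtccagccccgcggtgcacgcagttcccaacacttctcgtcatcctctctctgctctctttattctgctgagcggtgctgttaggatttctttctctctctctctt
Kdm1a: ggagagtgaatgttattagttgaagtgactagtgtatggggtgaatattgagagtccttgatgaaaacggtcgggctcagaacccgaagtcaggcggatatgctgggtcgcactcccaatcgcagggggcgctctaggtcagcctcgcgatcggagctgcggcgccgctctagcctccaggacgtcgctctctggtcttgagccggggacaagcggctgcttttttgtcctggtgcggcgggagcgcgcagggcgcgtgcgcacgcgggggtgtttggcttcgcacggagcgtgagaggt
In the window of Rcor1 (chr12:111039117-111039416, plus strand), capitals mark matches on either strand to the GC box GGGCGG, a sequence bound by Sp and Krüppel-like factors.
Rcor1: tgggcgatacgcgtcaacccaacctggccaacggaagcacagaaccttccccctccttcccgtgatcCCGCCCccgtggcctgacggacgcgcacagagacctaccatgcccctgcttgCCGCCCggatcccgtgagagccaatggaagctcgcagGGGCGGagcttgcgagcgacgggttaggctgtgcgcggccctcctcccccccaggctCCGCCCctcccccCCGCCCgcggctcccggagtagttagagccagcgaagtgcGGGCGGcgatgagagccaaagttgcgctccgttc
The AP-2 motif matched at base -119 from the start in Hdac2 and at base -186 in Phf21a, and it had no match in the Kdm1a window. The Rcor1 window held 6 GC boxes, of which the one at base -24 overlaps an AP-2 match at base -22. The AP-2 motif occurs in 16.6% of all 32851 promoter windows of this length and in 4 of the 9 windows of these genes. The GC box occurs in 35.7% of all windows and in 7 of the 9. Genes that passed in neither knockdown held these motifs as well. Rcor3 had 7 GC boxes, and Rcor2 had 1 GC box and an AP-2 match at base -25. Sin3a had 1 and 3 GC boxes in its windows. Hdac2 had 1 GC box and the Phf21a window shown had 3, though neither gene passed in siKlf5. The other Phf21a window held neither motif. The CACCC box GGGTGTG, also sought, occurs in 7.95% of all windows and in 1 of the 9, that of Rcor2. A match describes the sequence only, and binding was not measured here.

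Values that touch every comparison come first. Summed over all genes, linear values came to 388454 to 395401 per library in Ctrl, siKlf5 and siTfap2c, and to 478651 to 498621 in the 4 libraries of the motif knockouts. The median difference from Ctrl over all genes tested was -0.02 for siKlf5, 0.04 for siTfap2c, 0.27 for Arpc1bE_CdxE1_KO and 0.29 for CdxE2_KO on the log2 scale, so motif knockout values are given relative to this shift as well. The knockdown libraries and Ctrl stand in separate deposited tables, and levels set side by side across them may have been scaled apart. Tfap2c stood at 6.61 in both Ctrl libraries and at 3.94 and 4.09 in siTfap2c, and Klf5 at 7.20 and 7.13 in Ctrl and at 4.36 and 4.17 in siKlf5. Klf5 also stood below Ctrl in siTfap2c, at 5.32 and 5.45. Of 13 marker genes of the 8-cell embryo, Tfap2c and Klf5 among them, 12 reached at least 5.10 linear units in every library while Sox2 reached at most 1.1. Of the 12 of them tested, 11 were lower in siTfap2c, Tfap2c itself among them, against 11.9% of all genes. In siKlf5 3 were lower, Klf5 itself among them, and 0 higher, against 5.27% and 2.25% of all genes. The summed level of the 13 was 1312 to 1339 in Ctrl, 1104 to 1147 in siKlf5 and 769 to 786 in siTfap2c. It was 1441 to 1509 in Arpc1bE_CdxE1_KO and 1310 to 1404 in CdxE2_KO. As deposited, 0 of the 12 were lower in Arpc1bE_CdxE1_KO and 1 in CdxE2_KO (0.815% and 1.44% of all genes). Higher were 2 in Arpc1bE_CdxE1_KO and 1 in CdxE2_KO (23.2% and 28.5% of all genes). With libraries centred on their medians 1 and 6 were lower (1.31% and 3.60% of all genes) and 0 higher. Of 10 cumulus and granulosa markers 9 stayed under 1 unit in every library, with Fshr at 0 in all 10 and the list's sum between 0.766 and 3.62. The remaining cumulus and granulosa marker, Kitl, was lower in siTfap2c (log2 difference -1.15, limma adjusted p = 0.0019). It was low throughout, at 1.80 and 1.54 log2 units in Ctrl and at 0.48 and 0.56 in siTfap2c. The 10 oocyte markers summed to 42.9 to 52.2 in Ctrl and the knockdowns and to 58.1 to 78.6 in the motif knockouts.

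Rest (chromosome 5, 77265491 to 77286432, plus strand, mm10 in GENCODE M21, as for the other genes) differed most of the 9 genes between the knockdowns. It stood at 8.94 log2 units in both Ctrl libraries. In siKlf5 it stood at 9.23 and 9.24, and in siTfap2c at 7.51 and 7.54. The motif knockouts held 8.97 and 9.11 in Arpc1bE_CdxE1_KO and 9.15 and 9.08 in CdxE2_KO. Both siTfap2c libraries thus lie below every other library, and both siKlf5 libraries above every other. On the linear scale this is 489.7 ± 0.515 units in Ctrl (SD, n = 2), 603 ± 2.49 in siKlf5 and 183 ± 2.47 in siTfap2c, or 0.375 of the Ctrl level in siTfap2c and 1.23 times the Ctrl level in siKlf5. In these bulk embryo libraries less RNA per cell and fewer cells carrying it cannot be told apart. The level in siKlf5 was 3.29 times that in siTfap2c, a log2 difference of -1.71 for siTfap2c minus siKlf5, and 0.581% of the 11195 genes tested had a lower one. In that contrast 25.6% of genes passed the threshold. Rest was chosen on this contrast, so that share and its place among the 9 genes and among all genes are no test of it.

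From lowest to highest group mean, Rest ran siTfap2c (7.53), Ctrl (8.94), Arpc1bE_CdxE1_KO (9.04), CdxE2_KO (9.12) and siKlf5 (9.24). The libraries of the neighbours Arpc1bE_CdxE1_KO and CdxE2_KO overlap. The other neighbours do not overlap, but the step from Ctrl to the motif knockouts is smaller than the shift of those libraries as a whole. Against Ctrl, Rest differed by 0.10 (SE 0.09, limma adjusted p = 0.41) in Arpc1bE_CdxE1_KO and by 0.18 (SE 0.09, adjusted p = 0.15) in CdxE2_KO. Relative to the median gene these values are -0.17 and -0.12, so their sign turns with the scaling. With libraries centred on their medians the adjusted p was 0.21 and 0.33. In the fit of CdxE2_KO and Ctrl alone the adjusted p for Rest was 0.036.

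The high level of Rest can be placed by its rank, with the limit that the tables do not say whether abundance is per transcript length. It ranked 93 and 96 from the top of 24421 genes in Ctrl and 65 and 73 in siKlf5. In siTfap2c it ranked 398 and 384, still at or above 97.7% of the genes with a value above 0. In the motif knockouts its rank lay between 102 and 143. So Rest was among the highest values of every group, siTfap2c included.

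**Figure D1:**
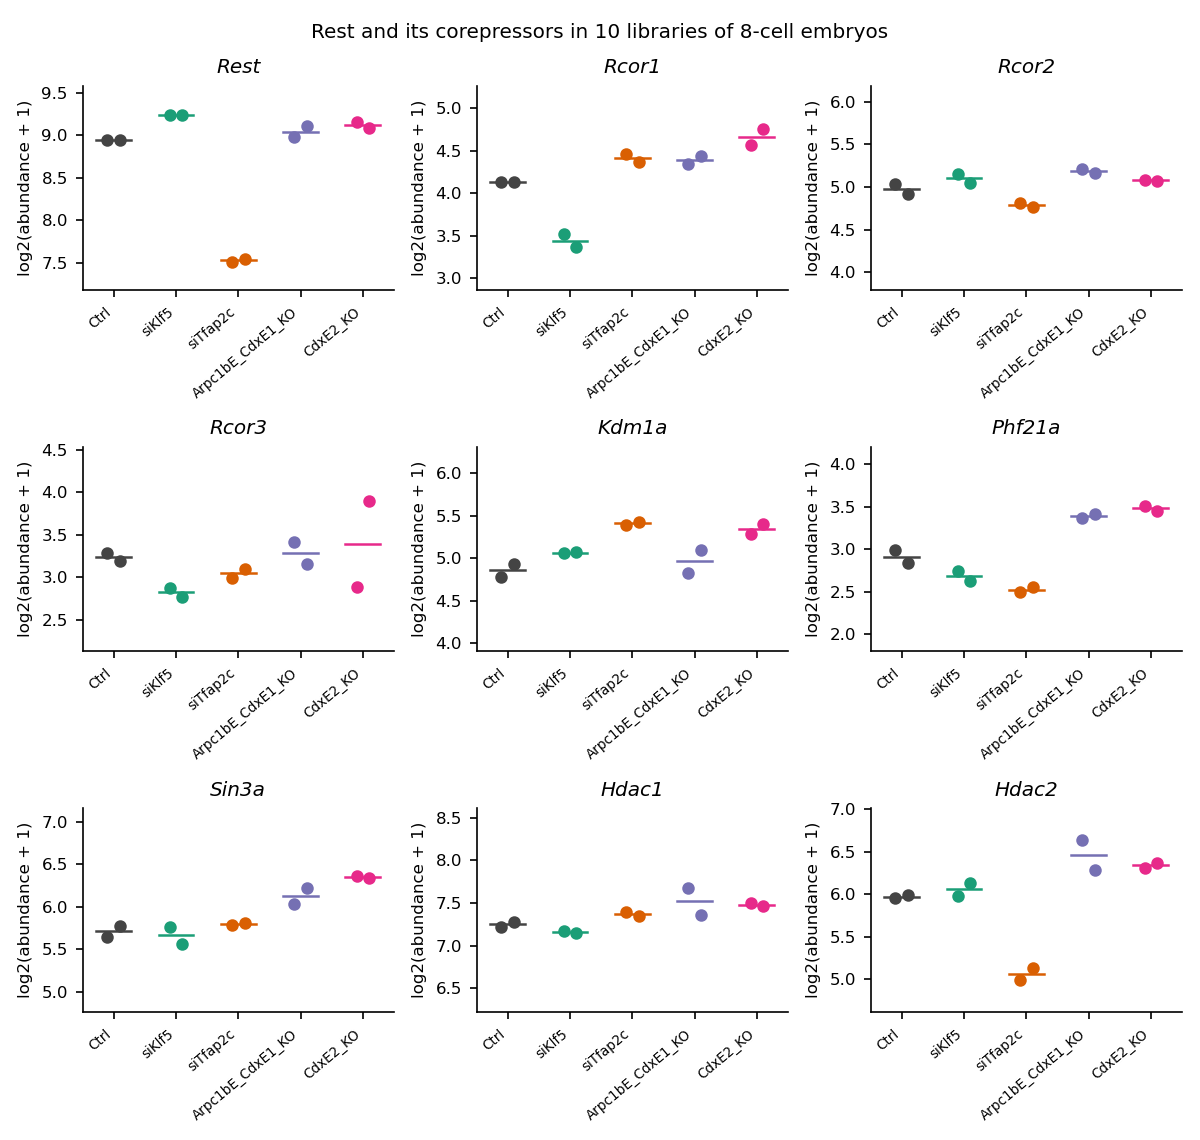
Levels of Rest and 8 corepressor genes as log2(abundance + 1) in 2 libraries (points) of each of 5 groups, with the group mean as a bar. Every panel spans 2.4 log2 units, so distances can be compared between panels. Rest, Rcor2, Phf21a and Hdac2 are lowest in both siTfap2c libraries, and Rcor1, Rcor3 and Hdac1 in both siKlf5 libraries.

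Of the CoREST scaffold genes, Rcor1 (chromosome 12, 111039351 to 111115901, plus strand) was lower in the Klf5 knockdown. Its Ctrl libraries both stood at 4.13 log2 units, and the siKlf5 libraries at 3.52 and 3.37. In siTfap2c it stood at 4.46 and 4.36, in Arpc1bE_CdxE1_KO at 4.34 and 4.44, and in CdxE2_KO at 4.57 and 4.76. The siKlf5 libraries lie below all others. The fall in siKlf5 was 0.69 on the log2 scale, a log2 difference of -0.69 (SE 0.10, limma adjusted p = 0.0053), or 0.600 of the Ctrl level in linear units (9.91 against 16.5). This call held without each of the 4 libraries in turn (highest adjusted p 0.049). In siTfap2c Rcor1 differed from Ctrl by 0.28 (adjusted p = 0.075), and by 0.28 with an adjusted p = 0.047 in a fit of those 4 libraries alone.

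Rcor2 (chromosome 19, 7267325 to 7275225, plus strand), the scaffold prominent in embryonic stem cells, varied least of the 3. It stood at 5.03 and 4.92 in Ctrl, 5.15 and 5.05 in siKlf5, and 4.81 and 4.76 in siTfap2c. The motif knockouts gave 5.21 and 5.17 for Arpc1bE_CdxE1_KO and 5.08 and 5.07 for CdxE2_KO. Its log2 difference from Ctrl was 0.12 in siKlf5 (limma adjusted p = 0.41) and -0.19 in siTfap2c (adjusted p = 0.12), and neither passed. Rcor3 (chromosome 1, 192098546 to 192138062, minus strand) had the widest spread within a group. Its CdxE2_KO libraries stood at 2.89 and 3.90, on either side of Ctrl at 3.29 and 3.19. The siKlf5 libraries gave 2.88 and 2.77, the siTfap2c libraries 3.00 and 3.10, and the Arpc1bE_CdxE1_KO libraries 3.42 and 3.16. With an SE of 0.26 its log2 differences of -0.42 in siKlf5 (adjusted p = 0.39) and -0.19 in siTfap2c (adjusted p = 0.65) did not pass. GENCODE M21 places Gm26879 and Gm10516 on the opposite strand of Rcor3, sharing 667 and 336 exonic bases with it. Whether the counting used strand is not given in the sources used here, so reads of these genes and Rcor3 may be mixed.

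The demethylase gene and its H3-reading partner moved in opposite directions in the Tfap2c knockdown. Kdm1a (chromosome 4, 136550540 to 136602723, minus strand) stood at 4.78 and 4.93 log2 units in Ctrl and at 5.39 and 5.43 in siTfap2c. In siKlf5 it stood at 5.06 and 5.07, in Arpc1bE_CdxE1_KO at 4.82 and 5.10, and in CdxE2_KO at 5.29 and 5.41. It rose in siTfap2c by 0.55 (SE 0.10, limma adjusted p = 0.0045), or 1.48 times the Ctrl level in linear units. The call held without each of the 4 libraries (highest adjusted p 0.043). In siKlf5 the difference was 0.20 (adjusted p = 0.29).

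Phf21a (chromosome 2, 92093117 to 92364666, plus strand) was low throughout. It stood at 2.99 and 2.84 in Ctrl, at 2.75 and 2.63 in siKlf5, and at 2.50 and 2.56 in siTfap2c. In the motif knockouts it stood higher, at 3.37 and 3.41 in Arpc1bE_CdxE1_KO and at 3.50 and 3.46 in CdxE2_KO. The siTfap2c libraries are the lowest of the 10. Its log2 difference in siTfap2c was -0.39 (SE 0.11, limma adjusted p = 0.027). No fit that left out 1 of the 4 libraries kept this call. The adjusted p was 0.14 without siTfap2c replicate 1, 0.087 without replicate 2, 0.17 without Ctrl replicate 1 and 0.0502 without Ctrl replicate 2. It was also lost in the fit of these 4 libraries alone (adjusted p = 0.051). In siKlf5 Phf21a differed by -0.23 (adjusted p = 0.26).

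Sin3a (chromosome 9, 57072040 to 57128366, plus strand) encodes the scaffold through which REST reaches deacetylases by its other arm. Its levels in Ctrl (5.65 and 5.78), siKlf5 (5.76 and 5.56) and siTfap2c (5.79 and 5.80) lay close together. The log2 difference from Ctrl was -0.05 in siKlf5 (limma adjusted p = 0.83) and 0.08 in siTfap2c (adjusted p = 0.59). It stood higher in Arpc1bE_CdxE1_KO, at 6.03 and 6.22, and in CdxE2_KO, at 6.36 and 6.34. GENCODE M21 places Man2c1os, an antisense gene, on 205 exonic bases of Sin3a.

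The deacetylase genes parted in the Tfap2c knockdown. Hdac2 (chromosome 10, 36974544 to 37001889, plus strand) stood at 5.95 and 5.99 log2 units in Ctrl and at 4.99 and 5.14 in siTfap2c. It stood at 5.98 and 6.13 in siKlf5, 6.63 and 6.28 in Arpc1bE_CdxE1_KO, and 6.31 and 6.36 in CdxE2_KO. As with Rest, both siTfap2c libraries lie below all others. Hdac2 fell in siTfap2c, with a log2 difference of -0.91 (SE 0.11, limma adjusted p = 0.00050) and 0.526 of the Ctrl level in linear units (32.5 against 61.7). Without each of the 4 libraries of these groups in turn the difference ran from -0.98 to -0.83. In siKlf5 it differed by 0.08 (adjusted p = 0.73).

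Hdac1 (chromosome 4, 129516104 to 129542713, minus strand) stood at 7.21 and 7.28 in Ctrl, at 7.17 and 7.15 in siKlf5, and at 7.40 and 7.35 in siTfap2c. The log2 difference in siTfap2c was 0.13 (limma adjusted p = 0.40) and in siKlf5 -0.09 (adjusted p = 0.67). Its Arpc1bE_CdxE1_KO libraries, at 7.68 and 7.35, were further apart than those of CdxE2_KO, at 7.50 and 7.46. Hdac1 has a near-identical copy in the genome, Gm10093, whose transcript matches it at 99.4% over 1444 bases, and which is not a row of the tables used here. How reads of such copies were assigned is not given in the sources used here, so the level of Hdac1 is uncertain to that extent.

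Counted over the 8 corepressors, 1 of 8 passed in siKlf5 (Rcor1, lower), where 7.52% of all 11195 genes tested passed in either direction and 5.27% were lower. In siTfap2c 3 of 8 passed, Kdm1a higher and Hdac2 and Phf21a lower, where 24.6% of all genes passed, 12.6% higher and 11.9% lower. The median log2 difference of the 8 was -0.07 in siKlf5, against -0.02 over all genes, and -0.05 in siTfap2c, against 0.04. With 8 genes such counts do not set the corepressors apart from other genes. The knockdowns share the Ctrl libraries, so their differences are not independent of each other. Side by side, the siTfap2c minus siKlf5 differences were 0.97 for Rcor1, 0.35 for Kdm1a, 0.22 for Rcor3, 0.21 for Hdac1, 0.13 for Sin3a, -0.16 for Phf21a, -0.31 for Rcor2 and -0.99 for Hdac2, and were not tested. The 8-cell markers that are lower in siTfap2c move with these results, and their part in them was not tested.

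**Figure D2:**
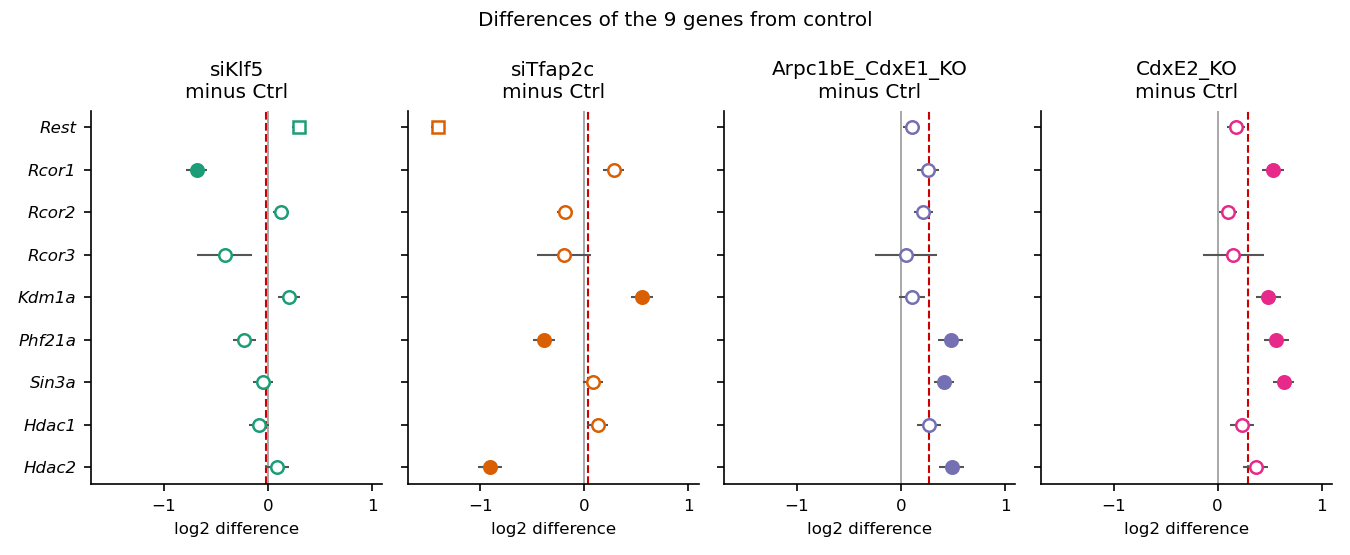
Log2 difference from Ctrl of each of the 9 genes in the 4 comparisons, with bars of 1 SE. Filled circles passed a limma adjusted p of 0.05, open circles did not, open squares (Rest in the knockdowns) were not tested, and the dashed line is the median of all genes tested. Hdac2 lies at -0.91 in siTfap2c, while in the motif knockouts the 9 genes scatter around the dashed line at 0.27 and 0.29.

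In the motif knockouts the 9 genes lay at or above Ctrl together with most genes. In Arpc1bE_CdxE1_KO 3 of 9 passed, all higher: Hdac2 (log2 difference 0.49, SE 0.12, limma adjusted p = 0.031), Phf21a (0.48, SE 0.12, adjusted p = 0.028) and Sin3a (0.41, SE 0.10, adjusted p = 0.027). Of all 10920 genes tested there 24.0% passed, 23.2% higher and 0.815% lower. In CdxE2_KO 4 of 9 passed, all higher: Sin3a (0.64, SE 0.10, adjusted p = 0.0072), Phf21a (0.57, adjusted p = 0.014), Rcor1 (0.53, adjusted p = 0.013) and Kdm1a (0.49, adjusted p = 0.026). Of all genes 29.9% passed there, 28.5% higher and 1.44% lower.

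The called differences of 0.41 to 0.49 in Arpc1bE_CdxE1_KO and 0.49 to 0.64 in CdxE2_KO stand beside medians of 0.27 and 0.29 over all genes. Relative to the median gene, the 9 differences ran from -0.22 (Rcor3) to 0.21 (Hdac2) in Arpc1bE_CdxE1_KO. In CdxE2_KO they ran from -0.19 (Rcor2) to 0.34 (Sin3a). With libraries centred on their medians 0 of 9 genes passed limma in Arpc1bE_CdxE1_KO, where 2.94% of all genes did (1.63% higher and 1.31% lower). In CdxE2_KO 0 of 9 passed as well, against 6.24% of all genes (2.64% higher and 3.60% lower). At an unadjusted p under 0.05, 1 of the 9 was lower in Arpc1bE_CdxE1_KO, and 1 was higher and 1 lower in CdxE2_KO. The lowest adjusted p of the 9 was then 0.21 (Rest) in Arpc1bE_CdxE1_KO and 0.13 (Sin3a) in CdxE2_KO. The count of 3 in Arpc1bE_CdxE1_KO was 0 without Ctrl replicate 1 and 0 without Ctrl replicate 2. There Phf21a missed the threshold in all 4 fits without 1 library (adjusted p 0.058 to 0.15), and Hdac2 moved from 0.49 to 0.31 without Arpc1bE_CdxE1_KO replicate 1 (adjusted p = 0.043). Hdac1, not called with all libraries, passed without Arpc1bE_CdxE1_KO replicate 2 (0.43, adjusted p = 0.0091). The count of 4 in CdxE2_KO was 2 without CdxE2_KO replicate 1, 0 without replicate 2, 0 without Ctrl replicate 1 and 1 without Ctrl replicate 2. Kdm1a and Phf21a missed the threshold in each of these 4 fits (highest adjusted p 0.14 and 0.090).

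Other genes that work with REST and CoREST went both ways in siTfap2c. In a list of 36 such partners, 29 were tested, and 4 fell and 4 rose in siTfap2c, near the 11.9% and 12.6% of all genes, with a list median of -0.01 against 0.04 over all genes. Ezh2, the methyltransferase of Polycomb complex PRC2, changed by -1.03 (SE 0.07, limma adjusted p = 1.4e-05), from 6.23 in both Ctrl libraries to 5.19 and 5.21. Gse1, a CoREST-associated protein, changed by -1.08 (adjusted p = 0.00022), the corepressor Ctbp2 by -0.87 (adjusted p = 0.0034), and Btrc, the ubiquitin ligase subunit that marks REST for degradation, by -0.70 (adjusted p = 0.0024). Leaving out any 1 library kept all 4 of these calls. The 4 that rose were Zmym2 (0.46), Zmym3 (0.58), Suz12 (0.40) and Ehmt1 (0.37). They fall outside the naming rule and were named after their values were seen, and each missed the threshold in 2 or more of the 4 fits without 1 library (highest adjusted p 0.062 for Zmym2, 0.068 for Zmym3, 0.089 for Suz12 and 0.11 for Ehmt1). In siKlf5, where 7.52% of all genes passed, 0 of the 29 passed limma as deposited. At an unadjusted p under 0.05, 4 were higher and 5 lower. With centred libraries 2 passed, both higher, where 379 of all 11195 genes were higher.

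Of these 29 partners 5 rose and 1 fell in Arpc1bE_CdxE1_KO, and 7 rose and 2 fell in CdxE2_KO. Of all genes 23.2% rose and 0.815% fell in the former, and 28.5% and 1.44% in the latter. With centred libraries 0 rose in either, and 1 fell in Arpc1bE_CdxE1_KO and 3 in CdxE2_KO. Of all genes 1.63% and 2.64% rose with this centring, and 1.31% and 3.60% fell. At an unadjusted p under 0.05, 1 was then higher and 9 lower in Arpc1bE_CdxE1_KO, and 1 higher and 7 lower in CdxE2_KO. Csnk1e, a casein kinase, was lower under both scalings: by -0.63 in Arpc1bE_CdxE1_KO (limma adjusted p = 0.013) and -0.60 in CdxE2_KO (adjusted p = 0.011) as deposited, and by -0.95 and -0.93 centred (adjusted p = 0.0097 and 0.0090). As deposited, Csnk1e missed the threshold in Arpc1bE_CdxE1_KO without Ctrl replicate 1 (adjusted p = 0.057) and without Ctrl replicate 2 (0.095). In CdxE2_KO it missed it without CdxE2_KO replicate 2 (0.076) and without Ctrl replicate 2 (0.076). Usp15, a deubiquitinase linked to REST, rose by 0.64 and 0.61, and Ezh2 by 0.35 and 0.47, in Arpc1bE_CdxE1_KO and CdxE2_KO. Eed, another PRC2 subunit, rose by 0.48 in Arpc1bE_CdxE1_KO, and Smarce1, a SWI/SNF subunit, by 0.36 in CdxE2_KO. None of these 4 genes passed with centred libraries (lowest adjusted p 0.15), and each lost its call without 1 or more libraries (highest adjusted p 0.088 for Usp15, 0.13 for Ezh2, 0.12 for Eed and 0.12 for Smarce1).

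Genes of the SIN3 and NuRD complexes, which share HDAC1 and HDAC2 with CoREST, passed about as often as other genes in siTfap2c. Of 30 such genes 29 were tested. In siTfap2c 4 rose and 3 fell, against 12.6% and 11.9% of all genes, and the list median of 0.04 equalled that of all genes. Arid4a and Arid4b, subunits of the SIN3 complex, rose by 0.62 (SE 0.08, limma adjusted p = 0.00081) and 0.59 (adjusted p = 0.0040). Gatad2b of NuRD rose by 0.63 (adjusted p = 0.0020), and Mbd3, also of NuRD, changed by -0.46 (adjusted p = 0.0068). Mbd3 lost its call without Ctrl replicate 1 (adjusted p = 0.058), and Arid4a, Arid4b and Gatad2b kept theirs without each library.

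In siKlf5 2 genes of this list passed as deposited and 3 with centred libraries, all higher. Of all 11195 genes 2.25% were higher there as deposited, and 379 with centred libraries. The 2 were again Arid4a and Arid4b, at 0.54 (limma adjusted p = 0.0068) and 0.47 (adjusted p = 0.034), and each lost its call without 1 or more libraries. Arid4a missed the threshold without Ctrl replicate 1 (0.056) and without Ctrl replicate 2 (0.0501). Arid4b missed it without siKlf5 replicate 1 (0.17), without siKlf5 replicate 2 (0.11) and without Ctrl replicate 1 (0.19). These comparisons use the same Ctrl libraries, where Arid4b stood at 3.50 and 3.81 and Arid4a at 3.34 and 3.35.

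Of the 29 subunits 10 rose and 0 fell in Arpc1bE_CdxE1_KO, and 9 rose and 0 fell in CdxE2_KO, with 0 lower in either at an unadjusted p under 0.05. Of all genes 23.2% and 28.5% rose there, and 0.815% and 1.44% fell. With centred libraries limma called 0 in Arpc1bE_CdxE1_KO (5 higher and 8 lower at an unadjusted p under 0.05) and 4 in CdxE2_KO, all higher. Of all genes 1.63% and 2.64% were then higher in these groups, and 1.31% and 3.60% lower. The 4 that passed in CdxE2_KO after centring were Sap30, a SIN3 subunit (0.94, limma adjusted p = 0.0090), Ing2, which reads methylated histone H3 (0.75, adjusted p = 0.031), Arid4b (0.66, adjusted p = 0.033) and Arid4a (0.51, adjusted p = 0.033). As deposited these were 1.27, 1.08, 0.99 and 0.85, and kept their calls without each library. In Arpc1bE_CdxE1_KO these genes stood at 0.61 (Sap30), 0.91 (Ing2), 0.72 (Arid4b) and 0.63 (Arid4a) as deposited. There each missed the threshold without Ctrl replicate 1 (0.066 to 0.093), and Arid4a (0.072), Ing2 (0.059) and Sap30 (0.059) also without Ctrl replicate 2. Centred, they did not pass there (lowest adjusted p 0.075).

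RE1 target genes were mostly near 0. Of 50 genes known as RE1 targets in neurons, 30 stayed under 1 linear unit in all 10 libraries and 20 were tested in the knockdown fit. In that fit 11195 of all 24421 genes were tested, so low values were common outside this list as well. Only 7 of the 50 reached 1 unit or more in every library. Stmn2 and Resp18 were listed at 0 in every library. An exact 0 can be a failed estimate in these tables, since Gapdh, a gene of glycolysis, was listed between 0 and 0.81 log2 units. Of 8 neuronal markers, which share 5 genes with this list, Rbfox3 was at 0 in all libraries and the sum lay between 2.19 and 5.91 units. In siTfap2c, where Rest stood at 0.375 of its Ctrl level, 1 of the 20 tested targets rose and 4 fell, against 12.6% and 11.9% of all genes. The list median was -0.17.

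The highest of these targets in Ctrl was Grin1, which encodes the obligatory subunit of NMDA receptors. It stood at 5.79 and 5.71 log2 units in Ctrl, at 5.03 and 4.62 in siKlf5, and at 2.89 and 3.03 in siTfap2c. In Arpc1bE_CdxE1_KO it stood at 5.56 and 5.63, and in CdxE2_KO at 5.38 and 5.12. Grin1 fell in siTfap2c, with a log2 difference of -2.79 (limma adjusted p = 2.6e-06) that passed in each fit without 1 library. In siKlf5 its difference was -0.93 (adjusted p = 0.0057), which missed the threshold without Ctrl replicate 1 (0.053). The summed level of the 50 targets was 97.3 and 97.6 units in Ctrl and 44.7 and 48.2 in siTfap2c. Without Grin1, a gene set aside after its values were seen, the sums were 43.0 and 46.1 in Ctrl, 38.3 and 41.0 in siTfap2c, and 39.6 and 34.4 in siKlf5. So the distance between Ctrl and siTfap2c lay mostly in this gene.

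Among the other targets, Stx1a, a syntaxin of synaptic release, changed by -0.99 in siTfap2c (limma adjusted p = 0.0016) and kept its call without each library. Chga, chromogranin A of secretory granules, changed by -0.71 (adjusted p = 0.023), and Cdk5r1, the activator of the kinase Cdk5, rose by 0.68 (adjusted p = 0.036). Chga missed the threshold without siTfap2c replicate 2 (0.16) and without Ctrl replicate 2 (0.16). Cdk5r1 missed it without siTfap2c replicate 1 (0.13), without replicate 2 (0.14) and without Ctrl replicate 1 (0.23). L1cam, a neural adhesion molecule named here after its values were seen, was the fourth target lower in siTfap2c, at -0.57 (adjusted p = 0.038), and missed the threshold in each of the 4 fits without 1 library (highest 0.17).

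In siKlf5 4 of 20 targets were lower and 0 higher (5 and 0 at an unadjusted p under 0.05), with Stx1a at -0.84 (limma adjusted p = 0.015), L1cam at -0.69 (adjusted p = 0.045) and Mmp24, a membrane metalloprotease, at -0.44 (adjusted p = 0.046) beside Grin1. Of all genes 5.27% were lower there and 2.25% higher. Stx1a, L1cam and Mmp24 each missed the threshold without any 1 of the 4 libraries. The highest adjusted p values were 0.10 for Stx1a (without Ctrl replicate 1), 0.23 for L1cam (without siKlf5 replicate 1) and 0.22 for Mmp24 (without siKlf5 replicate 2). With centred libraries 2 of the 4 passed, where 441 of all 11195 genes were lower.

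For the motif knockouts 18 targets were tested. Chga rose in Arpc1bE_CdxE1_KO (0.65, limma adjusted p = 0.040), a call that ended with centring (0.33, adjusted p = 0.32). As deposited it missed the threshold without Arpc1bE_CdxE1_KO replicate 1 (0.13), Ctrl replicate 1 (0.20) or Ctrl replicate 2 (0.081). In CdxE2_KO Chga rose by 1.23 (adjusted p = 0.0061) and Elavl3, an RNA-binding protein of neurons, by 1.03 (adjusted p = 0.0061). Both passed with centred libraries (0.90 with adjusted p = 0.034 and 0.70 with adjusted p = 0.041) and without each library. Grin1 was lower in CdxE2_KO by -0.50 (adjusted p = 0.018) and by -0.83 centred (adjusted p = 0.013), and as deposited missed the threshold without CdxE2_KO replicate 2 (0.11), without Ctrl replicate 1 (0.11) and without Ctrl replicate 2 (0.077). Tubb3, the neuronal tubulin, rose by 0.77 (adjusted p = 0.026), which centring ended (adjusted p = 0.22). It was low, at 0.92 and 1.06 log2 units in Ctrl and at 1.96 and 1.54 in CdxE2_KO. As deposited, Tubb3 missed the threshold without any 1 of the 4 libraries (highest adjusted p 0.13, without Ctrl replicate 1).

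The left arm of the RE1 element, TTCAGCACC on either strand, was found in 5 of the 47 promoter windows that RefSeq entries give for these targets (Syn1, Scg2, Nsg2, Celsr3 and Unc13a), and in 0.371% of all 32851 windows. Since the list was chosen as RE1 targets, this describes the list. None of the 9 windows of the corepressor genes held it.

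**Figure D3:**
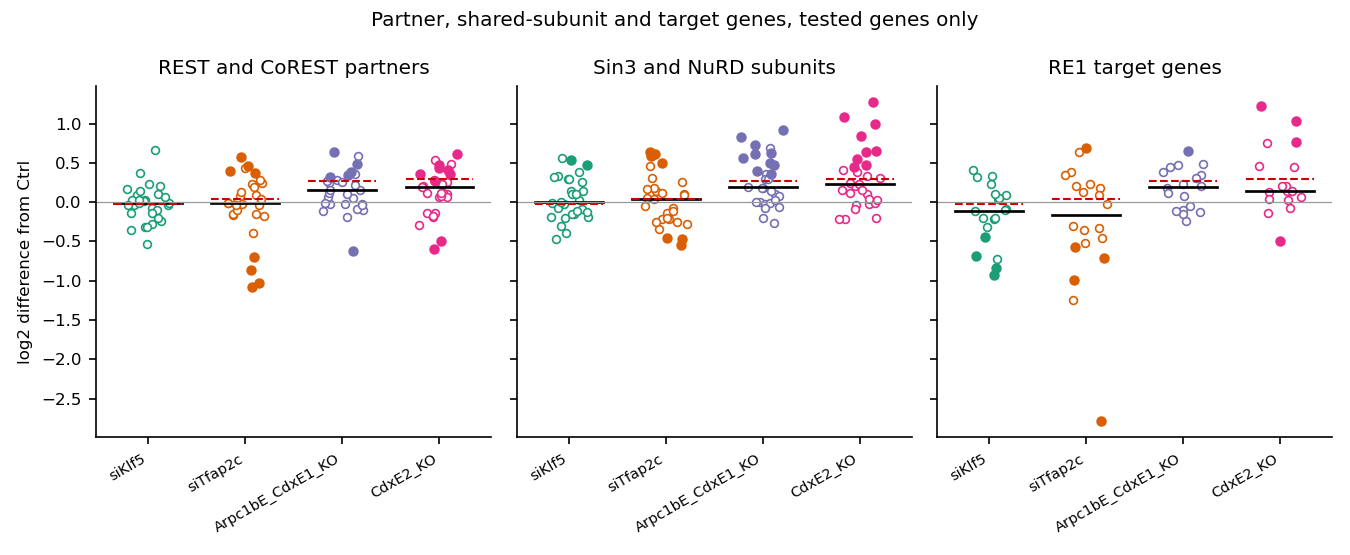
Log2 difference from Ctrl of the tested genes of 3 lists in the 4 comparisons, 1 point per gene, filled where the limma adjusted p was under 0.05. Black bars are list medians and dashed bars the medians of all genes tested. The lowest point is Grin1 in siTfap2c at -2.79, and in both motif knockouts the medians of all 3 lists lie below the dashed bar.

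The genes whose pattern was most like that of Rest were found by the Euclidean distance between the 4 log2 differences from Ctrl, over 4655 genes with a mean of at least 10 linear units. The closest was Rnf149, a membrane-bound ubiquitin ligase, at a distance of 0.20, followed by Mfsd1, a lysosomal membrane transporter (0.20). Tmem64, a membrane protein, was also among the 4 closest (0.23). The median distance over all these genes was 1.56. In siTfap2c these genes differed from Ctrl by -1.41 (Rest), -1.36 (Rnf149), -1.46 (Mfsd1) and -1.41 (Tmem64). In siKlf5 Rest had the largest difference of them, at 0.30, and the other 3 lay between 0.12 and 0.19. These genes were picked for their likeness, so their agreement with Rest is no test.

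**Figure D4:**
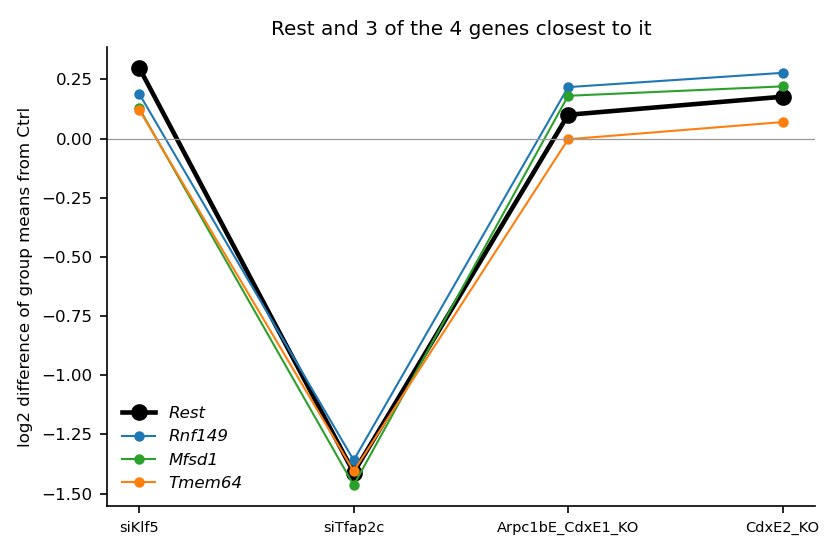
Log2 difference of group means from Ctrl in the 4 other groups for Rest (thick black line) and 3 of the 4 genes at the smallest distance from it. All 4 lines lie between -1.46 and -1.36 in siTfap2c and between -0.0027 and 0.30 elsewhere.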

How the data were processed

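RNA of 8-cell mouse embryos was measured in 10 libraries made with a total RNA kit and random primers, per the labels' protocols. The submitters' processing notes name mm10, StringTie 1.3.4, HISAT2 2.1.0, Cufflinks and SAMtools 1.7, without the role of each. The authors deposited log2 values per gene in 3 tables. Their zeros put the added constant at 1, and the kind of abundance is not given in the sources used here. With limma 3.58.1 (eBayes with trend, R 4.3.3), genes reaching 1 linear unit in 2 or more libraries were tested, and those with a p under 0.05 after Benjamini-Hochberg adjustment were called. Knockdowns were compared with Ctrl in a fit of all 10 libraries, since Ctrl stands in the motif knockout table, and motif knockouts within that table (6 libraries). All adjusted p-values are limma's over all genes tested. The fitting code was tested on simulated data.

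The genes followed, the gene lists and the naming rule were chosen with earlier results of these data known. Named are the 9 genes, Tfap2c and Klf5, up to 4 called genes with the lowest p per list and comparison, and the 4 genes closest to Rest, of which 1 is not reported here (symbols starting with Gm and a digit, ending in Rik or containing -ps left out). Copies of the 9 transcripts were sought in GENCODE M21 with BLAST 2.17.0 (at least 95% identity over 500 bases). Alternatives were centring on medians, another added constant, other filters, eBayes without trend and the replicate number as a block. Further ones were fits of 4 libraries and leaving out 1 library at a time. Only libraries of the 2 groups compared were left out, here and wherever a result is given without a library.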

Additional observations from a re-analysis of the deposited data

How the results depend on the processing

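The 11 alternatives to each comparison left the count of corepressors called at 1 in siKlf5 and at 2 to 3 in siTfap2c. Counted over all 9 genes, Rest included, the number called in Arpc1bE_CdxE1_KO was 3 as deposited, 0 with centred libraries, 0 without the filter on low values, 1 by eBayes without trend, 0 in the fit of 4 libraries, and 0 to 3 without 1 library. The number in CdxE2_KO was 4 as deposited, 0 with centred libraries, 7 in the fit of 4 libraries (Rest among them) and 0 to 2 without 1 library. The cause was not tested, beyond the shift of all genes that centring removes. The Rest difference between the knockdowns was -1.78 with centred libraries. Replicate numbers are shared by the groups, but same-numbered libraries did not deviate together (correlations between -0.05 and 0.04). With the replicate number as a block the counts were 1 (siKlf5), 3 (siTfap2c), 3 (Arpc1bE_CdxE1_KO) and 4 (CdxE2_KO), as without it.

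Signs turned in these cases, with no call before or after. With centred libraries the differences in Arpc1bE_CdxE1_KO were -0.22 (Rest), -0.060 (Rcor1), -0.11 (Rcor2), -0.27 (Rcor3), -0.22 (Kdm1a) and -0.051 (Hdac1), in CdxE2_KO -0.15 (Rest), -0.23 (Rcor2), -0.18 (Rcor3) and -0.10 (Hdac1), and in siKlf5 0.0038 (Sin3a). Without 1 library Sin3a in siKlf5 ran from -0.15 to 0.051, Kdm1a in Arpc1bE_CdxE1_KO from -0.033 to 0.24, Rcor3 there from -0.084 to 0.18, and Rcor3 in CdxE2_KO from -0.35 to 0.66. Counts over all genes moved more than 1.5 times: siKlf5 had 842, 507 without the filter and 211 to 317 without 1 library, and siTfap2c 2749 and 1535 to 1773 without 1 library. Arpc1bE_CdxE1_KO had 2621, 321 centred, 1166 without the filter and 161 to 2864 without 1 library, and CdxE2_KO 3270, 681 centred, 1858 without the filter and 514 to 1099 without 1 library. Read depth is unknown, so what it limits could not be measured.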
